A study of Mus musculus with 24 samples.

Results

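Erythroid cells were followed in neonatal mouse lungs through 8 genes: *Alas2*, *Hba-a1*, *Hba-a2*, *Slc4a1*, *Ahsp*, *Rhag*, *Klf1* and *Hemgn*. The genes were chosen as known markers of red blood cells and their precursors and were looked up by symbol in tables of 23420 genes. Of the 8, 7 were listed and 5 (*Alas2*, *Slc4a1*, *Rhag*, *Klf1* and *Hemgn*) had more than 3 reads in at least 1 lung. *Ahsp*, which encodes a chaperone of free α-globin, had no entry and was not analysed here. *Alas2* fell in lungs that lacked *Vangl2* in the distal epithelium at postnatal day (P) 2, and no other member passed the test in any of the 4 comparisons of mutant with control lungs. The call of *Alas2* was kept in 2 of 6 fits that left out 1 lung, and it was not shown to differ from the other comparisons.

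Red blood cells arise from erythroblasts in the bone marrow and, around birth, in the fetal liver and spleen. The young cells that leave these sites, the reticulocytes, have lost the nucleus but still carry messenger RNA for hemoglobin, heme synthesis and the cell membrane, which they lose as they mature. The erythroid transcription factors GATA1 and KLF1 switch on this set of genes in precursors. A lung does not normally make red blood cells, and in lung tissue these transcripts are usually ascribed to blood. In RNA from whole tissue, fewer cells of a type and less RNA per cell cannot be told apart.

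RNA was sequenced from the left lung lobe of 24 mice in 8 groups of 3. The mutants carried Cre knocked into the *Sox9* locus together with floxed alleles of *Vangl2*, a core component of planar cell polarity, or of *Ror2*, a Wnt receptor (Sox9Cre; Vangl2f/f and Sox9Cre; Ror2f/f in the sample titles). They were collected at P2 and P5, and each mutant at each age had its own 3 controls, titled Control(Vangl1/2) or Control(Ror2). The comparisons ask how the lung transcriptome changes when planar cell polarity genes are lost from the epithelium. Sox9-Cre acts in the SOX9+ distal lung epithelium and in other organs that express *Sox9*. The genotype entry of all controls is WT, which names no Cre, and their titles do not say which alleles of *Vangl1*, *Vangl2* or *Ror2* they carried, so the effect of the Cre allele and that of the deletion cannot be told apart. For the P5 *Vangl2* and P2 *Ror2* mutants the genotype entry names the other floxed gene, and the sample titles were followed. The sources used here do not say whether lungs were perfused or whether lungs of a group came from separate litters, so p-values measure the spread between these lungs.

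Each lung had between 16178031 and 21546673 reads in genes, apart from P5 *Ror2* control 1, which had 13823693. In that lung 77.5% of the genes of chromosome 5 and 99.8% to 100% of those of chromosomes 6 to 9 and X were listed at 0, and it was set to missing for genes on these chromosomes, among them *Alas2* (X), *Klf1* (8) and the β-globin genes (7). *Xist*, the RNA of the inactive X chromosome of females, stood at 11859 normalized counts or more in 11 lungs and at no more than 283 in the other 12 measured. Both kinds occurred in every group except the P5 *Vangl2* controls (all high) and the P5 *Ror2* mutants (all low). *Alas2* is the X-linked member. The targeted genes did not pass the test in whole lobes. *Vangl2* differed by -0.39 (log2, mutant over control) at P2 and -1.003 at P5, with adjusted p-values of 0.241 and 0.0604 by limma, and *Ror2* by -0.38 and -0.16, with 0.25 and 0.692. Expression is given as normalized counts, which are reads scaled by the size factor of each lung. Changes are log2 fold changes of mutant over control on the log2(normalized count + 1) scale with their standard error (SE), and a gene was called changed when its Benjamini-Hochberg adjusted p-value over all genes tested was under 0.05.

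The α-globin genes, which give the most abundant proteins of the red blood cell together with β-globin, were almost absent from the tables. *Hba-a1* had at most 2 reads in a lung and 7 reads in all, spread over 5 lungs, and *Hba-a2* was listed at 0 in every lung. No fold change was computed for either gene. The coding sequences of *Hba-a1* (chr11:32283707-32284388, GRCm38, plus strand) and *Hba-a2* (chr11:32296524-32297205) are 426 bases each and differ at 1 base, C381T, counted from the first base of the start codon with the *Hba-a1* base first. Bases 262 to 411 of each are shown, with that base in capitals, because they show how little separates reads of the pair.
Hba-a1: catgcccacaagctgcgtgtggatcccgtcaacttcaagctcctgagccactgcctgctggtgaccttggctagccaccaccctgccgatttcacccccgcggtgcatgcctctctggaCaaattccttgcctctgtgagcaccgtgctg
Hba-a2: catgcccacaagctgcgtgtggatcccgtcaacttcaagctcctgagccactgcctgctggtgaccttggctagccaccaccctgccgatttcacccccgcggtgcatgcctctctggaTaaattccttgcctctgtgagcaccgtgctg

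Among 50-base windows of the transcripts, 67.5% of those of *Hba-a1* (699 bases) and 86.9% of those of *Hba-a2* (554 bases) were also found in the other gene. How reads that match more than 1 place were handled is not given in the sources used here, and the values of both genes are uncertain. The part of such reads in their low counts was not tested. The β-globin genes gave a mixed picture, and *Hbb-bt*, another gene of that list, had no entry. *Hbb-b1* had at most 1 read in a lung and *Hbb-b2* none, while *Hbb-bs*, the major adult β-globin gene of the reference mouse strain, listed under its older name *Beta-s*, had up to 155696 reads in a lung.

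The other members are single-copy genes spread over the genome. *Alas2*, the erythroid form of the first enzyme of heme synthesis, lies at chrX:150547375-150570638 (GRCm38). *Slc4a1*, which encodes the band 3 anion exchanger of the red cell membrane, lies at chr11:102348824-102366203 on the minus strand. *Rhag*, which encodes the Rh-associated glycoprotein of the same membrane, lies at chr17:40811126-40840754. *Klf1*, the erythroid Krüppel-like transcription factor, lies at chr8:84901928-84905291. *Hemgn*, which encodes the nuclear protein hemogen of blood cell precursors, lies at chr4:46393989-46413506 on the minus strand.

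The 250 bases before the start of the RefSeq transcript (GRCm38.p6) were searched for the GATA motif AGATAA or TGATAA and for the Krüppel-like motif CCNCNCCC on both strands, since the products of *Gata1* and *Klf1* bind such letters. Of the 6 members with a promoter entry, 6 held the GATA motif, against 16.6% of all 32851 promoters (5452). Among the 6 are *Hba-a1* and *Hba-a2*, whose promoters share nearly all letters and the motif, so they are not separate matches. The Krüppel-like motif was found in 2 of the 6, *Alas2* and *Hemgn*, against 45.9% of all promoters. A match is a description of the letters and not a sign of binding. The GATA motif began 86 bases before the start in *Alas2*, 31 in *Rhag* and 80 in *Klf1*, each on the opposite strand, and 13 in *Hemgn* on the strand shown. The promoters of these members with reads are shown with that motif in capitals, from chrX:150547167-150547416 (*Alas2*), chr17:40810899-40811148 (*Rhag*), chr8:84901732-84901981 (*Klf1*) and chr4:46404184-46404433 on the minus strand (*Hemgn*).
Alas2: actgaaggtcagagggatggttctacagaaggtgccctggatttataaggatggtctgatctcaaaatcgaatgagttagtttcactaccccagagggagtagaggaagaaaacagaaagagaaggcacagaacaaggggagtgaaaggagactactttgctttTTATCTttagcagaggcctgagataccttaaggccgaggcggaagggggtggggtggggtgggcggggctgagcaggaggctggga
Rhag: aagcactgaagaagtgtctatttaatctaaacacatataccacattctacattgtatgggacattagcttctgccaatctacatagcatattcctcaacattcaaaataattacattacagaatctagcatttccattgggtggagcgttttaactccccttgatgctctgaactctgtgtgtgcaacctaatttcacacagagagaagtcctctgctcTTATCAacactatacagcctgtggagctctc
Klf1: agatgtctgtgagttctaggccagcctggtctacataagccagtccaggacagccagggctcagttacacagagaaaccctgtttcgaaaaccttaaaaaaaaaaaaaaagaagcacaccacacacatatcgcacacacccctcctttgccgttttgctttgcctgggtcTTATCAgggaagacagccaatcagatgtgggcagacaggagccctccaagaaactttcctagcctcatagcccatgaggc
Hemgn: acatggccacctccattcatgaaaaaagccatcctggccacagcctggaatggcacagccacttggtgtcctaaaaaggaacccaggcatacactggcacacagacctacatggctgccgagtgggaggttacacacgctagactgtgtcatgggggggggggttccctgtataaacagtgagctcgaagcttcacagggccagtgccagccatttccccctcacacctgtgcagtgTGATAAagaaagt

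Per length, the members spanned a wide range of expression in the control lungs, 12 for *Slc4a1*, *Rhag* and *Hemgn* and 11 for *Alas2*, *Klf1* and *Hbb-bs*. In RPM (reads scaled to the same total in every lung) per kilobase of exon, *Alas2* stood at a lowest level of 67.6, a median of 135 and a highest level of 271, and *Slc4a1* at 5.48, 13.6 and 23.5. The remaining members were lower by an order of magnitude. *Hemgn* stood at 0.344, 1.07 and 1.98, *Rhag* at 0.168, 0.957 and 1.24, and *Klf1* at 0.295, 0.769 and 1.08. *Hbb-bs*, by comparison, stood at 1347, 5202 and 15675.

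The upper steps of this order held in every lung in which both genes were measured. *Hbb-bs* was above *Alas2* in 23 of 23 lungs with a median ratio of 56.3, *Alas2* was above *Slc4a1* in 23 of 23 with a median ratio of 10.4, and *Slc4a1* was above *Hemgn* in 24 of 24 with a median ratio of 10.7. The lower steps did not. *Hemgn* was above *Rhag* in 19 of 24 lungs (median ratio 1.34) and *Rhag* above *Klf1* in 10 of 23 (0.959), and the ranges of these 3 genes overlapped. Lungs differed widely in every member. The highest lung stood 9.72 times above the lowest for *Alas2*, 13.3 times for *Slc4a1*, 8.18 times for *Rhag*, 13.6 times for *Klf1*, 19.0 times for *Hemgn* and 20.6 times for *Hbb-bs*.

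**Figure D1:**
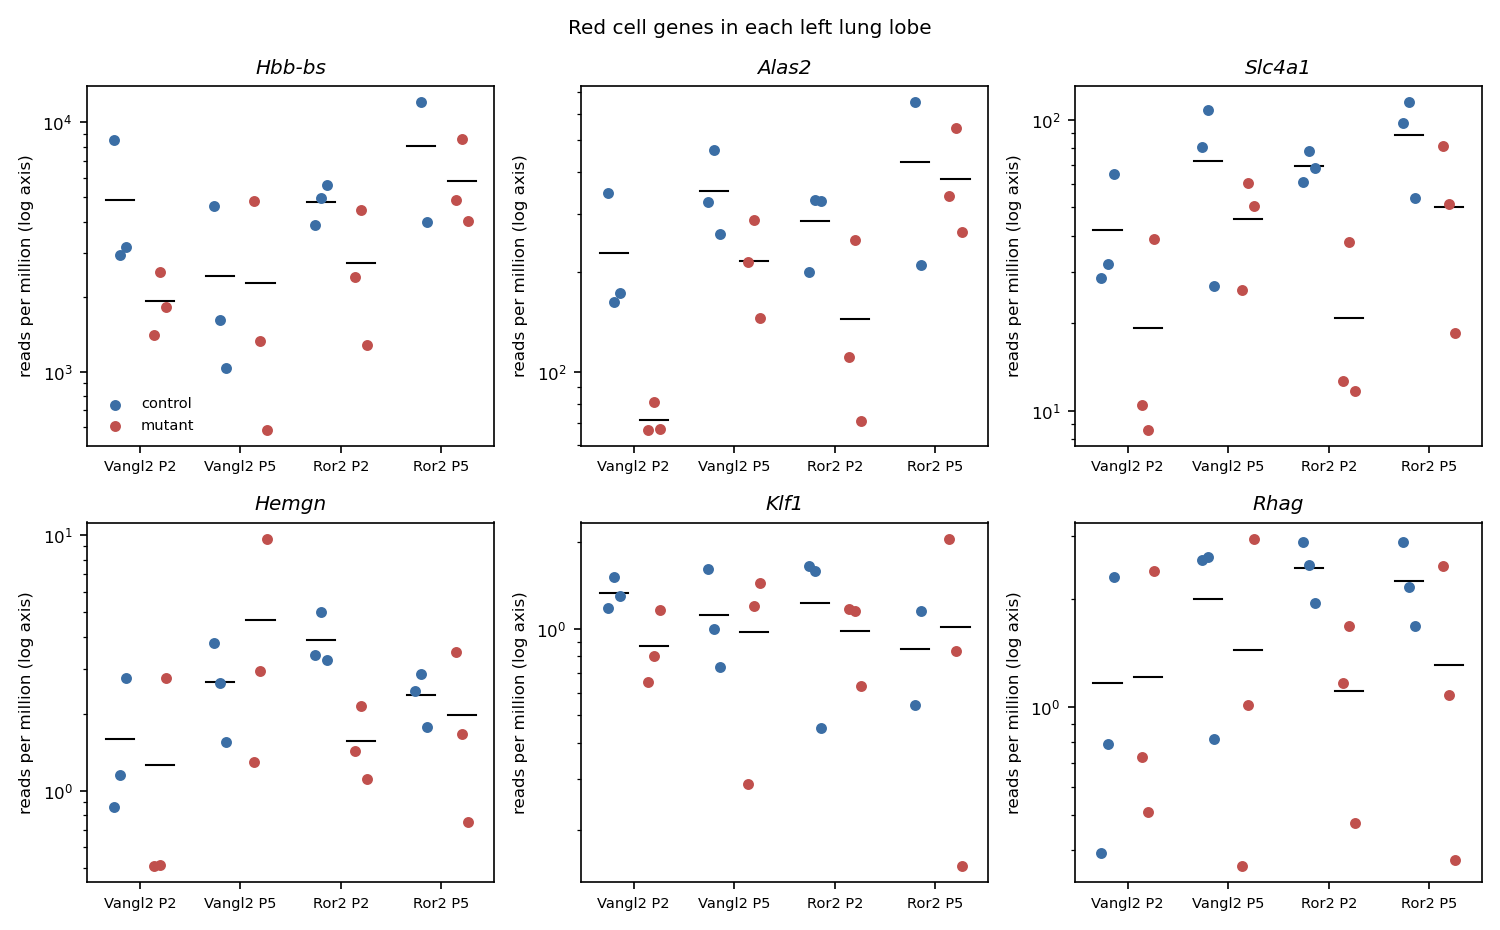
Expression of *Hbb-bs* and of the 5 members with reads in each lung, in RPM counted over genes outside chromosomes 5 to 9 and X, on a log axis. Points are lungs, blue for control and red for mutant, and bars are group means. P5 *Ror2* control 1 is missing for *Hbb-bs*, *Alas2* and *Klf1*. The 3 *Alas2* points of the P2 *Vangl2* mutants sit below the lungs of all other groups except the lowest P2 *Ror2* mutant.

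When *Vangl2* was deleted, *Alas2* fell at P2. *Alas2* stood at 4662, 2146 and 2296 normalized counts in the 3 controls and at 955, 1091 and 945 in the 3 mutants. Every mutant was below every control, and control 1, the one control with high *Xist*, stood apart above the others. The means were 3035 ± 1411 and 997 ± 81.3 (SD, n = 3). The log2 fold change was -1.51 (SE 0.27) with an adjusted p-value of 0.0326 by limma, and the exact two-sided permutation test gave 0.1, the smallest value that 3 against 3 lungs allow. Leaving out 1 lung at a time kept the call in 2 of 6 fits, those without control 1 or mutant 3, with log2 fold changes from -1.72 to -1.16 and adjusted p-values from 0.0272 to 0.162. *Xist* was high in mutants 2 and 3 and low in mutant 1, and in a fit with a term for *Xist* above 1000 normalized counts, added after the data were seen, *Alas2* stood at -1.71 with an adjusted p-value of 0.0383 by limma.

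The other members did not pass the test at P2 in these mutants. *Slc4a1* stood at 384, 421 and 863 normalized counts in controls and 149, 116 and 545 in mutants (-1.29, SE 0.57, adjusted p = 0.230 by limma). Mutant 3 lay above 2 of the 3 controls, and without it the log2 fold change was -1.97 with an adjusted p-value of 0.0165 by limma. That fit called 2333 of 17146 genes. *Klf1* stood at 15.8, 19.9 and 17.2 in controls and 9.30, 10.8 and 16.3 in mutants (-0.54, SE 0.35, adjusted p = 0.402 by limma). *Rhag* stood at 5.27, 10.4 and 30.6 in controls and 10.3, 6.88 and 33.6 in mutants, and *Hemgn* at 11.6, 15.2 and 36.4 in controls and 7.24, 6.88 and 38.7 in mutants. For both genes control 3 and mutant 3 were the high lungs of their groups, and the groups overlapped (0.15 and -0.52, SE 0.74 and 0.71, adjusted p = 0.923 and 0.701 by limma). Across these lungs 1 of the 5 members was called against 3.59% of all genes tested, and in 1 of 5 every mutant lay below every control, against 14.9% of all genes. A fit blocked by lung number called 2 of 5 (*Alas2* and *Slc4a1*), against 4.56% of all genes.

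At P5 no member passed the test in the same mutants. *Alas2* stood at 4250, 6061 and 3203 normalized counts in controls and 2728, 3491 and 1626 in mutants, with 1 mutant above the lowest control. The log2 fold change was -0.80 (SE 0.32) with an adjusted p-value of 0.226 by limma. In this comparison alone, control and mutant lungs of equal number shifted in common, and a fit blocked by that number gave *Alas2* an adjusted p-value of 0.0140, in a fit that called 8.95% of all genes. *Slc4a1* stood at 1057, 1404 and 331 in controls and 330, 739 and 566 in mutants, groups that overlapped (-0.61, SE 0.52, adjusted p = 0.578 by limma).

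The low members were scattered at P5. *Rhag* stood at 33.8, 34.1 and 10.1 in controls and 4.58, 12.3 and 33.1 in mutants (-0.81, SE 0.74, adjusted p = 0.604 by limma). *Klf1* stood at 21, 12.9 and 9.07 in controls and 3.67, 14.6 and 16.1 in mutants (-0.44, SE 0.60, adjusted p = 0.746 by limma). In both genes mutant 1 was the lowest lung, at few reads. *Hemgn* stood at 49.3, 34.1 and 19.1 in controls and 16.5, 35.8 and 108 in mutants (0.33, SE 0.66, adjusted p = 0.833 by limma), and without mutant 3 its log2 fold change was -0.37. In mutant 3 the summed lymphocyte markers stood at 1451 RPM against 59.4 to 127 in the controls of this age and 68.9 and 97.9 in the other mutants, and their part in the *Hemgn* value was not tested. None of the 5 members was called, against 0.563% of all genes, and none had every mutant below every control, against 12.5% of all genes.

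In the *Ror2* mutants at P2, no gene of the whole table was called by limma, although 3380 genes had an unadjusted p-value under 0.05. *Slc4a1* showed the widest difference of the members. It stood at 765, 953 and 845 normalized counts in controls and at 159, 471 and 155 in mutants, and every mutant lay below every control. The log2 fold change was -1.90 (SE 0.41), with an adjusted p-value of 0.203 by limma and an exact permutation p-value of 0.1. DESeq2 on the same reads called it (-1.70, adjusted p = 0.00362) and called 4.53% of all genes (794), while edgeR called 0.

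*Alas2* stood at 2503, 4020 and 4060 in these controls and 1399, 3079 and 946 in the mutants, where mutant 2 lay above control 1 (-1.11, SE 0.41, adjusted p = 0.229 by limma). Without mutant 2 the adjusted p-values by limma were 0.0379 for *Alas2* (-1.58) and 0.0112 for *Slc4a1* (-2.43). That fit called 859 of 17409 genes. *Hemgn* stood at 42.3, 60.7 and 40.1 in controls and 18, 26.5 and 14.7 in mutants (-1.24, SE 0.33, adjusted p = 0.203 by limma). *Rhag* stood at 36.1, 30.3 and 24.2 in controls and 14.7, 20.9 and 6.30 in mutants (-1.18, SE 0.45, adjusted p = 0.235 by limma). For both, every mutant lay below every control. *Klf1* overlapped, at 20.6, 19.3 and 5.59 in controls and 14.7, 14.2 and 8.40 in mutants (-0.12, SE 0.53, adjusted p = 0.915 by limma). None of the 5 members was called, against 0% of all genes, and in 3 of 5 (*Slc4a1*, *Rhag* and *Hemgn*) every mutant lay below every control, against 12.2% of all genes.

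At P5 the *Ror2* comparison rested on 2 controls for *Alas2* and *Klf1*. *Alas2* stood at 8447 and 2717 normalized counts in controls 2 and 3 and at 4207, 6833 and 3349 in mutants, all 3 inside the range of the controls (-0.06, SE 0.49, adjusted p = 0.958 by limma). Of these 5 lungs control 2 alone had high *Xist*, and its part in the value was not tested. *Slc4a1* stood at 1234, 1491 and 695 in controls and 1006, 642 and 235 in mutants (-1.02, SE 0.51, adjusted p = 0.325 by limma). The mutants reached lower than the controls, and the groups overlapped.

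*Rhag* stood at 36.4, 28.1 and 21.8 in these controls and 30.7, 13.6 and 4.77 in mutants (-1.07, SE 0.59, adjusted p = 0.363 by limma). *Klf1* stood at 7.03 and 14.9 in the controls and 25.4, 10.4 and 1.91 in mutants (-0.24, SE 0.91, adjusted p = 0.908 by limma). *Hemgn* stood at 30.8, 37.2 and 22.8 in controls and 43.3, 20.9 and 9.54 in mutants (-0.50, SE 0.51, adjusted p = 0.618 by limma). Mutant 3 was the lowest lung for *Slc4a1*, *Rhag*, *Klf1* and *Hemgn* alike. None of the 5 members was called, against 0.122% of all genes, and none had every mutant below every control, against 14.3% of all genes. *Hba-a1* passed the filter on low values in this comparison alone, at no more than 2 reads in a lung, and no direction was read from it.

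*Hbb-bs*, the abundant globin transcript, had a log2 fold change below 0 in all 4 comparisons and did not pass the test in any with all lungs and no further term. At P2 it stood at 113980, 38887 and 42028 normalized counts in the *Vangl2* controls and 19976, 33899 and 25570 in the mutants, with every mutant below every control (-1.14, SE 0.41, adjusted p = 0.156 by limma). With the term for *Xist* it passed (-1.48, adjusted p = 0.0433 by limma). In the *Ror2* comparison at P2 it stood at 48302, 60553 and 69425 in controls and 30174, 55265 and 17031 in mutants, which overlapped (-0.95, SE 0.40, adjusted p = 0.254 by limma). It passed limma's test without mutant 2 (-1.37, adjusted p = 0.0474), in a fit that called 859 of 17409 genes. At P5 the log2 fold changes were -0.43 (SE 0.83) in *Vangl2* and -0.37 (SE 0.51) in *Ror2* mutants. The *Vangl2* controls and mutants at P5 each spread widely, over 12758 to 60233 and 6565 to 61752.

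The median log2 fold change of the 5 members with reads was -0.54 and -0.61 in *Vangl2* mutants at P2 and P5 and -1.18 and -0.50 in *Ror2* mutants, while the median of all genes tested stayed between -0.01 and 0.00. Of the 5, 4 had a log2 fold change below 0 in each *Vangl2* comparison and 5 in each *Ror2* comparison. The members are markers of red blood cells and their precursors and were measured in the same lungs, so these counts are not independent tests.

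**Figure D2:**
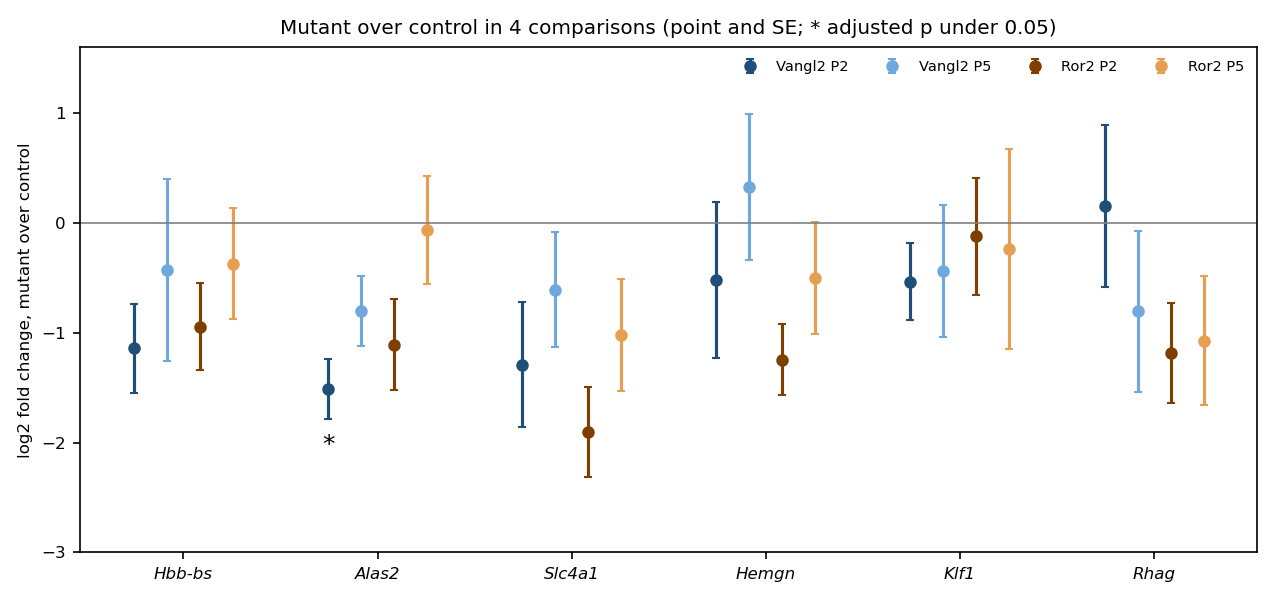
Log2 fold change of mutant over control for *Hbb-bs* and the 5 members with reads in the 4 comparisons, with 3 lungs a group (2 controls for *Hbb-bs*, *Alas2* and *Klf1* in *Ror2* at P5). Points are fitted values, bars are SE, and the star marks the adjusted p-value under 0.05, which is reached for *Alas2* in *Vangl2* mutants at P2 with a log2 fold change of -1.51.

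The effect of the deletion was then compared between ages and between genes in one fit over 12 lungs. No member was called in any of these tests. The *Alas2* effect of *Vangl2* differed by 0.71 between P5 and P2 (P5 minus P2, log2, SE 0.46, adjusted p = 0.662 by limma), and at P2 the *Vangl2* effect differed from the *Ror2* effect by -0.41 (SE 0.55, adjusted p = 0.980). For *Slc4a1* the difference between *Vangl2* and *Ror2* at P2 was 0.61 (SE 0.80, adjusted p = 0.979 by limma) and for *Rhag* it was 1.33 (SE 0.94, adjusted p = 0.959). Over all genes the share called was 0% for the difference between ages in *Vangl2* mutants (1442 genes at an unadjusted p-value under 0.05), 0% for that in *Ror2* mutants (1614 genes), 0% for *Vangl2* against *Ror2* at P2 (788 genes) and 0.0118% at P5 (798 genes). The call of *Alas2* in *Vangl2* mutants at P2 was therefore not shown to differ from the other comparisons.

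Between P2 and P5 the control lungs are set side by side without a test, since the tables were normalized separately. Levels are RPM counted over genes outside chromosomes 5 to 9 and X. Among the *Vangl2* controls, *Alas2* stood at 347, 162 and 173 at P2 and 325, 467 and 260 at P5, and *Slc4a1* at 28.6, 31.9 and 65.1 at P2 and 80.8, 108 and 26.8 at P5. *Rhag*, *Klf1* and *Hemgn* also overlapped between ages, and the differences of means (P5 minus P2, log2) were 0.67 for *Alas2*, 0.65 for *Slc4a1*, 0.51 for *Rhag*, -0.16 for *Klf1* and 0.52 for *Hemgn*. For none of the 5 did every P5 control lie above or below every P2 control, against 9.83% of all genes above and 20.1% below.

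Among the *Ror2* controls, *Alas2* stood at 200, 330 and 328 at P2 and at 650 and 210 at P5, a difference of 0.41. *Slc4a1* stood at 61.3, 78.2 and 68.2 at P2 and 97.9, 115 and 53.7 at P5, a difference of 0.29, and *Rhag* and *Klf1* differed by -0.09 and -0.24 with overlap. *Hemgn* stood at 3.39, 4.97 and 3.23 at P2 and 2.44, 2.86 and 1.76 at P5, with every P5 control below every P2 control (-0.53). Of the 3 members with 3 controls at P5 (*Slc4a1*, *Rhag* and *Hemgn*), 1 was lower in every P5 control, against 24% of such genes lower and 10.2% higher. Of the pair with 2 controls (*Alas2* and *Klf1*) neither was separate, against 34.1% of such genes lower and 12.2% higher. *Hbb-bs* differed by -1.12 in the *Vangl2* controls and 0.54 in the *Ror2* controls, with overlap in both.

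Genes with related roles were described by lists. Of 18 genes of the red cell membrane and its skeleton none was called in any comparison. Their median log2 fold change was -0.16 and -0.22 in *Vangl2* mutants at P2 and P5 and -0.44 and -0.17 in *Ror2* mutants, and every mutant lay below every control in 2, 1, 7 and 2 of the 18, against the 14.9%, 12.5%, 12.2% and 14.3% of all genes given above. In 0, 3, 0 and 1 of the 18 every mutant lay above every control. Of all genes, 14.6% and 13.2% did so in *Vangl2* mutants at P2 and P5, and that share was not computed for *Ror2* mutants. *Epb42*, which encodes protein 4.2 of the red cell membrane, gave -1.10 (SE 0.42, adjusted p = 0.234 by limma) in *Ror2* mutants and -1.28 (SE 0.80, adjusted p = 0.381) in *Vangl2* mutants at P2. *Kel*, which encodes the Kell blood group protein, gave -1.12 (SE 0.35, adjusted p = 0.207 by limma) and -0.82 (SE 0.52, adjusted p = 0.387). *Aqp1* and *Epb41*, the list's most abundant genes, which other lung cells also express, stayed between -0.22 and 0.15 in all 4 comparisons. In the fit blocked by lung number, *Cd47*, which encodes a surface protein that shields red cells from macrophages, passed in *Vangl2* mutants at P5 (0.57, adjusted p = 0.0359 by limma).

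Among 16 heme synthesis and iron supply genes other than *Alas2*, none was called. Their medians lay between -0.10 and 0.13, and 8, 6, 11 and 9 of 16 were below 0 in *Vangl2* mutants at P2 and P5 and *Ror2* mutants at P2 and P5. Every mutant lay below every control in 4, 1, 5 and 2 of 16, against the same shares of all genes. In 2, 3, 0 and 3 of 16 every mutant lay above every control, against 14.6% and 13.2% of all genes in *Vangl2* mutants at P2 and P5. *Uros*, which encodes an enzyme of the middle of the pathway, was among the genes separate below at P2 in both mutants, at -0.40 in *Vangl2* and -0.24 in *Ror2* mutants. The most abundant, *Fam210b* and *Alad*, ranged from -0.45 to 0.30. *Fech*, which encodes ferrochelatase, the last enzyme of heme synthesis, stood at 1507, 1653 and 1906 in the P2 *Ror2* controls and 1027, 1321 and 1082 in the mutants, without overlap (-0.56). Most enzymes of the pathway are housekeeping genes of all cells, whereas *Alas2* is the erythroid form.

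Of 20 genes of red cell enzymes and terminal maturation, 2 fell in *Vangl2* mutants at P2, among them *Bpgm*, against 3.59% of all genes called in either direction. Of the 20, 11 were below 0, and the median was -0.11. *Bpgm* encodes the enzyme that makes 2,3-bisphosphoglycerate, which lowers the oxygen affinity of hemoglobin. It stood at 2666, 1860 and 1945 normalized counts in controls and 802, 1101 and 1222 in mutants (-1.05, SE 0.19, adjusted p = 0.0333 by limma). Every mutant lay below every control. The call was kept in 2 of 6 fits that left out 1 lung, with adjusted p-values up to 0.168. In the *Ror2* mutants *Bpgm* gave -0.69 (adjusted p = 0.216 by limma) at P2, where it passed without mutant 2 (adjusted p = 0.0412), and -0.04 at P5. The fit without mutant 2 called 859 of 17409 genes. In the fit blocked by lung number *Bpgm* passed in *Vangl2* mutants at P5 (-0.40, adjusted p = 0.0464 by limma), as did *Car2*, a carbonic anhydrase gene (-0.79, adjusted p = 0.0365). *Trim10*, which encodes an erythroid RING finger protein, gave -2.22 (SE 0.60, adjusted p = 0.203 by limma) in *Ror2* mutants at P2 and did not pass limma's test in any comparison.

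The minor globin genes were close to the limit of detection. *Hbq1b*, a θ-globin gene, stood at 10.5, 8.54 and 15.3 normalized counts in the P2 *Vangl2* controls and 2.07, 1.97 and 2.04, about 2 reads, in the mutants, and was called (-2.01, SE 0.41, adjusted p = 0.0418 by limma). That call held in 1 of 6 fits that left out 1 lung, and it was lost with the term for *Xist* (adjusted p = 0.0670). The embryonic genes did not pass the test. *Hba-x*, an embryonic α-like globin gene with at most 15 reads in a lung, stood at 2.11, 1.90 and 0.958 in these controls and 6.2, 6.88 and 9.17 in the mutants, with every mutant higher (1.68, SE 0.44, adjusted p = 0.0783 by limma). At P5 it gave 2.24 (SE 0.81, adjusted p = 0.200 by limma) in *Vangl2* mutants, with overlap. *Hbb-y*, an embryonic β-like globin gene with at most 12 reads, gave 0.20 and 1.29 at P2 and P5 (adjusted p = 0.845 and 0.421 by limma). Of 14 genes of erythroid transcription factors and the Epo receptor none was called, and the medians lay between -0.03 and 0.09. In *Vangl2* mutants at P2 and P5 and *Ror2* mutants at P2 and P5, 7, 8, 4 and 7 were below 0. Every mutant lay above every control in 0, 1, 6 and 4 of the 14, against 14.6% and 13.2% of all genes in *Vangl2* mutants. Every mutant lay below every control in 1, 2, 0 and 1, against 14.9%, 12.5%, 12.2% and 14.3% of all genes. The most abundant, *Ldb1* and *Kit*, are also expressed by other lung cells, and *Kit* passed in *Vangl2* mutants at P5 in the fit blocked by lung number (-0.82, adjusted p = 0.0348 by limma).

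Most of the 12 genes for clearing free heme and hemoglobin stood above 0 in *Vangl2* mutants, and 1 was called. At P2, 2 of 12 were below 0 and every mutant lay above every control in 8, against 14.6% of all genes, and at P5 these counts were 1 and 3, against 13.2% of all genes. *Hp*, which encodes haptoglobin, the plasma protein that binds free hemoglobin, rose in *Vangl2* mutants at both ages. It stood at 3632, 3324 and 3076 normalized counts in the P2 controls and 14048, 6857 and 13834 in the mutants (1.72, SE 0.26, adjusted p = 0.0295 by limma). At P5 it stood at 2878, 1973 and 2645 in controls and 5764, 6502 and 6305 in mutants (1.32, SE 0.17, adjusted p = 0.0202 by limma). Every mutant lay above every control at both ages. These calls were kept in 3 of 6 and 1 of 6 fits that left out 1 lung. With the term for *Xist* the adjusted p-values by limma were 0.0433 and 0.0562, so the call at P5 was not kept. At P5 mutant 1 alone had low *Xist*, and the term gave the same fold change as leaving out that lung (1.38). The P5 fit therefore cannot tell *Xist* from that lung. In *Ror2* mutants *Hp* gave 0.75 (adjusted p = 0.203) at P2 and 1.49 (adjusted p = 0.121) at P5. DESeq2 called the former (adjusted p = 0.0487), and without mutant 3 limma called the latter (adjusted p = 0.00304). Those fits called 794 of 17541 and 790 of 17031 genes. Haptoglobin is also an acute phase protein made by lung and liver cells. The other 11 genes of this list did not pass the test in any comparison, and the list's medians were 0.44, 0.39, 0.14 and 0.19. Among them were *Hpx*, which encodes the heme carrier hemopexin (1.61, adjusted p = 0.123 in *Vangl2* mutants at P2 by limma), *Cd163*, which encodes the hemoglobin receptor of macrophages (1.10, adjusted p = 0.234), and *Fth1*, which encodes a ferritin chain (0.79, adjusted p = 0.0561).

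**Figure D3:**
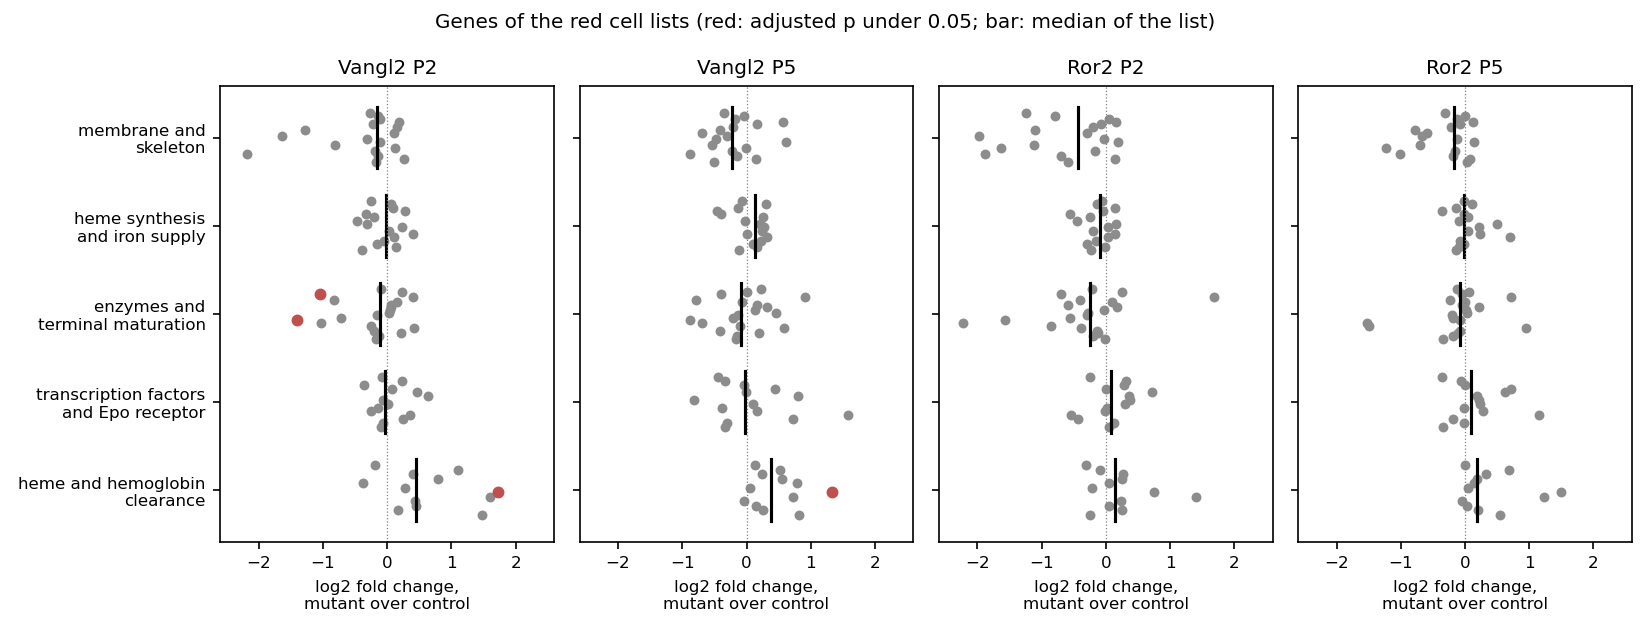
Log2 fold change of mutant over control for each gene of 5 lists with roles in red cells or in clearing their heme, in the 4 comparisons. Red points have an adjusted p-value under 0.05 and bars are list medians. *Bpgm* (-1.05) is among the red points on the left of 0 in *Vangl2* at P2, and *Hp* is red on the right of 0 in *Vangl2* at P2 (1.72) and P5 (1.32).

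Markers of other cells moved beside the erythroid genes. All 12 genes of the cell division list fell in *Vangl2* mutants at P2, with a median of -1.81, and their summed level was 387 to 808 RPM in mutants against 1462 to 2285 in controls. In *Ror2* mutants at P2 their median was also -1.81, with none called, and the sums were 237 to 1285 against 1200 to 2428. The summed level of the erythroid members in the same lungs was 79.2 to 113 against 198 to 378 in *Vangl2* and 85.1 to 292 against 270 to 417 in *Ror2*. Most of each sum was *Alas2*, at 66.9 to 80.9 RPM in the P2 *Vangl2* mutants against 162 to 347 in their controls. *Slc4a1*, *Rhag* and *Hemgn* overlapped between these *Vangl2* groups. Neutrophil markers rose in *Vangl2* mutants, 9 of 11 at P2 and 4 of 11 at P5, against 3.59% and 0.563% of all genes called in either direction. *S100a8*, which encodes a calcium-binding protein abundant in neutrophils, gave 1.51 at P2 and 2.18 at P5 (adjusted p = 0.032 in both by limma). The summed neutrophil markers were 807 to 1047 RPM in mutants against 292 to 448 in controls at P2, and 900 to 2344 against 299 to 412 at P5. The part of these changes in the erythroid values was not tested.

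Platelet markers, which share a precursor with red cells, had no called gene among 11, and *Pf4*, which encodes platelet factor 4, ranged from -0.77 to 0.53 over the comparisons. Among macrophage markers *C1qa*, a complement gene, was the only one of 10 called (0.59 in *Vangl2* mutants at P2), and among alveolar epithelial markers the called genes were *Sftpa1* (1.89) and *Hopx* (0.75) in the same lungs. None of 10 lymphocyte and none of 10 endothelial markers was called. The fit blocked by lung number in *Vangl2* mutants at P5 called 9 of 11 neutrophil, 5 of 10 macrophage, 2 of 10 endothelial and 2 of 10 alveolar epithelial markers, and 8.95% of all genes. *Cdh5* and *Pecam1*, which mark the endothelium that holds the blood, gave -0.01 and 0.02 in *Vangl2* mutants at P2, where *Alas2* fell, and -0.74 and -0.61 at P5. The 5 erythroid members with reads were above 0 in every lung in which they were measured.

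The genes most like the members were sought among 14866 candidates by Pearson's r over 23 lungs, as a description. The lungs share a library and a depth scaling for all genes, and the groups contribute to r. Among the 5 genes most like the mean of the measured members were *Trim10* (r = 0.91), *Epb42* (0.91) and *Slfn14-ps* (0.87). Spearman's rho was 0.87, 0.87 and 0.89 in turn, and without the 2 lungs farthest from the median r was 0.90, 0.86 and 0.85. Over deviations from group means the leading genes included *Kel* (0.91), *Epb42* and *Trim10* (0.90 each) and *Slfn14-ps* (0.86). *Epb42* and *Kel* belong to the membrane list and *Trim10* to the maturation list.

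The members did not vary as one. *Slc4a1* went with *Rhag* (r = 0.77) and *Hemgn* (0.75), and *Rhag* with *Hemgn* (0.85), while *Alas2* went with *Slc4a1* (0.73) but less with *Hemgn* (0.31), *Rhag* (0.26) and *Klf1* (0.02). Over deviations from group means, *Rhag* and *Hemgn* gave 0.94, and *Alas2* gave 0.45 with *Slc4a1* (0.31 without the 2 farthest lungs), 0.05 with *Rhag* and 0.02 with *Hemgn*. Genes with a high r with *Alas2* were *Bpgm* (0.96), *Paqr9* (0.93), *Fech* (0.91) and *Slc25a39* (0.90), and with *Slc4a1* they were *Trim10* (0.95) and *Epb42* (0.93). The gene most like *Rhag* was *Ermap* of the membrane list (0.85). *Ift80* was most like *Hemgn* (0.83) and *Zfp101* most like *Klf1* (0.74), and neither is on a red cell list. These neighbours of single members were picked after the values were seen. *Alas2* ran from 0.912 to 0.956 with *Bpgm* and *Fech* and from 0.591 to 0.631 with *Trim10* and *Epb42*. *Rhag* and *Hemgn* ran the other way, from 0.315 to 0.423 with the first pair and from 0.687 to 0.813 with the second. *Slc4a1* was high with both (0.789 to 0.797 and 0.927 to 0.951), and *Klf1* low with both (0.0599 to 0.438). *Klf1* had at most 24 reads in a lung, and the part of low counts in its r was not tested. *Hbb-bs* gave 0.60 with *Alas2*, 0.33 with *Slc4a1*, 0.015 with *Rhag*, -0.08 with *Klf1* and -0.11 with *Hemgn*. With the mean of the members it gave 0.28, rank 4173 of 14866 genes.

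The split can be seen in single lungs. In the third *Vangl2* mutant at P2, *Alas2* was as low as in the other mutants, at 945 against 955 and 1091 normalized counts, while *Slc4a1*, at 545, lay above the other mutants (149 and 116). *Rhag* and *Hemgn*, at 33.6 and 38.7, were the highest of all 6 lungs of that comparison.

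**Figure D4:**
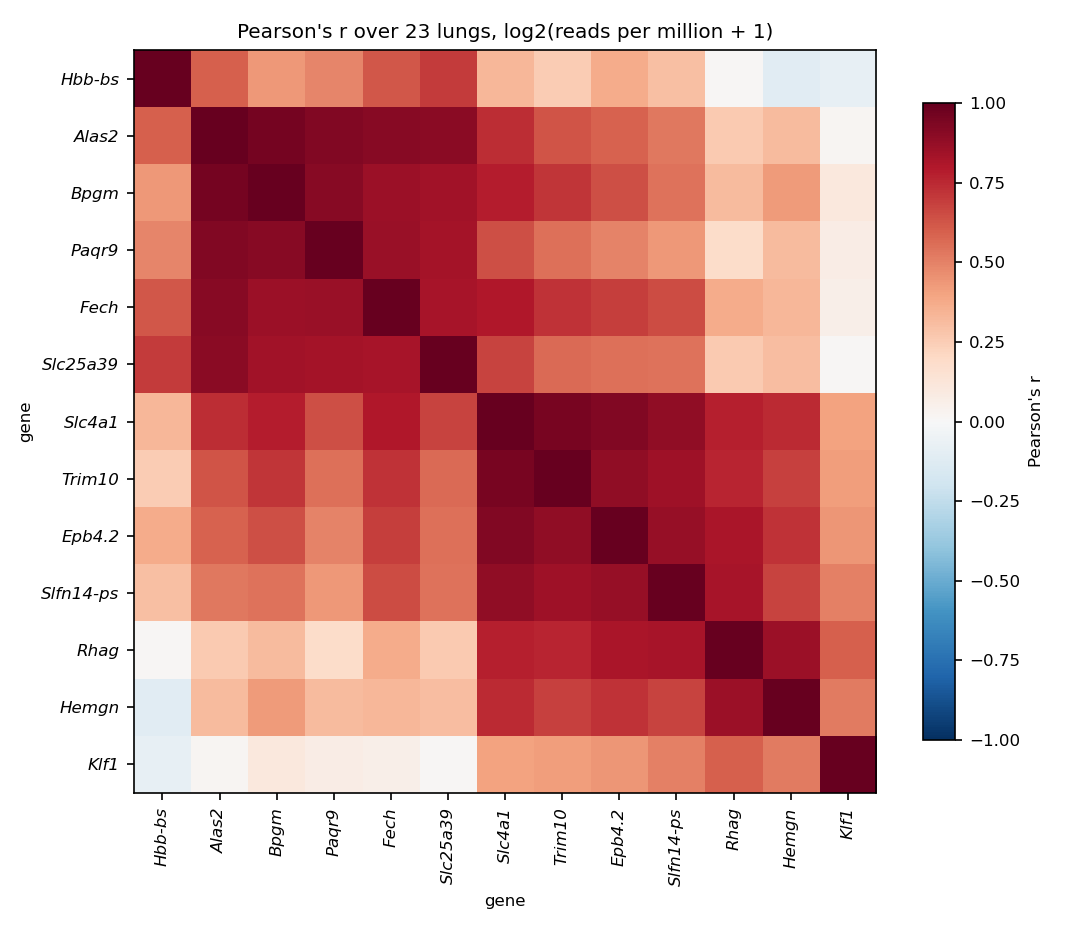
Pearson's r between genes over 23 lungs on log2(RPM + 1), for *Hbb-bs*, the 5 members with reads and genes like them. Rows and columns are genes, and color runs from -1 (blue) to 1 (red). *Alas2* is dark with *Bpgm*, *Paqr9*, *Fech* and *Slc25a39* (0.90 to 0.96), the lowest r within this block is 0.83, and *Slc4a1* a block with *Trim10* and *Epb42* (written *Epb4.2*), to which *Rhag* and *Hemgn* are closer than to the first.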

How the data were processed

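Total RNA of whole left lung lobes had been sequenced in 24 lungs. Each deposited signal value is a normalized count, that is, reads counted per gene by the authors and divided by a size factor per lung. The submitters' processing notes name mm10 and DESeq2, and the aligner and counter are not given in the sources used here. Columns with the authors' own fold changes and p-values were not used. All values came out as whole reads within 0.02 (100%), with 16178031 to 21546673 gene reads per lung, and 13823693 in P5 *Ror2* control 1, which was set to missing for chromosomes 5 to 9 and X.

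Samples were grouped by title. Mutant and control lungs were compared within each table with limma 3.58.1 (R 4.3.3, trended empirical Bayes) on log2(normalized count + 1), over genes at 1 or more in at least 3 of 6 lungs, with Benjamini-Hochberg adjustment at 0.05. Exact permutation tests of 3 against 3 lungs cannot go below 0.1. The differences between comparisons were tested in limma over 12 lungs, and ages were compared without a test. Alternatives on whole reads were edgeR 4.0.16 and DESeq2 1.42.0, run at P2 only. Further alternatives were a pseudocount of 0.5, no filter, scaling to gene reads, a replicate block and leaving out each lung. A term for *Xist* above 1000 normalized counts was added after the data were seen (not in *Ror2* at P5, where *Xist* is missing in control 1). In *Vangl2* at P5 mutant 1 alone had low *Xist*, so that term fitted this lung alone. In *Vangl2* at P5 alone the deviations of all 3 controls correlated most with the mutant of equal number, at 0.384, 0.340 and 0.241. In *Ror2* at P2 this held for numbers 2 and 3 (0.2065 and 0.119) but not for number 1 (0.0346). No test compared these values. The fitting code was tested on simulated data.

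The members and lists were chosen with earlier results of these data known. Named genes were all members, the β-globin genes, up to 4 genes per list and comparison with the lowest adjusted p-values under 0.05, the 2 most abundant of a list where none passed, and the 5 genes most like the members' mean. Other named genes were chosen after their values were seen. *Ahsp*, *Hbb-bt* and *Ly6g* had no entry and were not analysed here. Some genes that this rule names are not reported here.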

Additional observations from a re-analysis of the deposited data

How the results depend on the processing

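With 3 lungs a group, the call of *Alas2* in *Vangl2* mutants at P2 was lost without control 2 or 3 or without mutant 1 or 2. Over 148 values of members under settings other than leaving out a lung, 141 kept their direction and side of the threshold, 3 passed it newly and 4 changed sign. Of the 5 members, leaving out 1 lung gave 0 to 2 called in *Vangl2* and 0 to 2 in *Ror2* at P2. The fits with 2 members called also called 2333 of 17146 genes in *Vangl2* (without mutant 3) and 859 of 17409 in *Ror2* (without mutant 2). The median log2 fold change of the members ran from -1.29 to -0.38 and -1.53 to -0.74 at P2 and from -1.03 to -0.16 and -1.01 to 0.02 at P5. With the replicate block, 2 members were called in *Vangl2* at P2 (*Slc4a1* with an adjusted p-value of 0.0443, while *Hbq1b* and *Bpgm* were lost at 0.0676 and 0.0553) in a fit that called 4.56% of all genes, and 1 at P5, where it called 8.95%. DESeq2 called 1 in *Ror2* at P2 and 4.53% of all genes.

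Over all genes, the 626 calls in *Vangl2* at P2 became 1 to 2333 without 1 lung, 2001 with DESeq2, 641 with edgeR and 795 with the replicate block. The 98 calls at P5 became 0 to 54, 1558 with the replicate block, 176 with scaling to gene reads and 22 with the term for *Xist*. In that last fit the term fitted mutant 1 alone. The 0 calls in *Ror2* at P2 became 0 to 859, 1 with the replicate block and 794 with DESeq2, and the 21 at P5 became 0 to 790, 1 with the replicate block, 35 with scaling to gene reads and 1 with P5 *Ror2* control 1 as deposited.

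With that control as deposited the *Ror2* values at P5 turned to 4.01 for *Alas2*, 0.93 for *Klf1*, 5.11 for *Hbb-bs* and 3.74 for *Bpgm*, by its missing chromosomes. Scaling to gene reads turned *Bpgm* there to 0.0070. The replicate block turned the difference of *Vangl2* and *Ror2* at P5 for *Klf1* to 0.53, and the term for *Xist* turned *Klf1* in *Vangl2* at P5 to 0.16. That term fitted mutant 1 alone, and leaving out mutant 1 gave the same value. Leaving out 1 lung changed signs within these ranges. In *Vangl2* they were -0.47 to 0.78 for *Rhag* at P2, and at P5 -1.29 to 0.33 for *Hbb-bs*, -0.63 to 0.074 for *Hbq1b*, -0.37 to 0.95 for *Hemgn* and -0.77 to 0.16 for *Klf1*. In *Ror2* they were -0.68 to 0.18 for *Klf1* at P2, and at P5 -0.88 to 0.75 for *Alas2*, -1.17 to 0.43 for *Hbb-bs*, -0.60 to 0.52 for *Bpgm*, -0.97 to 0.62 for *Klf1*, -0.21 to 0.42 for *Hbq1b* and -1.01 to 0.022 for *Hemgn*. Between ages in the *Ror2* controls they were -0.41 to 1.22 for *Alas2*, -0.23 to 0.035 for *Rhag* and -0.52 to 0.000346 for *Klf1*. The cause was not tested for the other changes.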
